A study of Mus musculus with 51 samples.

Results

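Spo11, Mei1, Mei4, Rec114 and Ankrd31 encode proteins that make the DNA double-strand breaks (DSBs) with which meiotic recombination begins. They were chosen by name for this role and not by a rule on their peaks, but with earlier results of these data known. They are 5 of the 20722 autosomal protein-coding genes of GENCODE M21. Each was described by the ChIP-Seq peaks that reached within 500 bp, up- or downstream, of a transcription start site (TSS) of its protein-coding transcripts. All coordinates refer to mm10.

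SPO11 is the topoisomerase-like protein that cuts the DNA, and it works together with TOP6BL. MEI1, MEI4 and REC114 are accessory proteins without which few breaks form, and ANKRD31 binds REC114 and helps to set how many breaks form and where. Breaks are made mostly in leptonema and zygonema, and their repair goes on through pachynema, in which crossovers mature. Trimethylation of lysine 4 of histone H3 (H3K4me3) is found at the promoters of many active genes, and the methyltransferase PRDM9 also places it at the sites where breaks will be made.

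The nuclei were from testes of adult C57BL/6J mice, a wild-type inbred strain, and no genotype or treatment was compared. They were fixed with formaldehyde and sorted by DNA content, SCP3 and further nuclear proteins into populations of leptonema and zygonema, of early and late pachynema, and of diplonema. STRA8 marked the leptotene gate, while the other 4 stages came from a separate sort on histone H1t and SCP1. According to the study the sorts were not fully pure, with the zygotene one the least pure and the leptotene one the purest. H3K4me3 was measured with an EpiCypher antibody in 2 experiments per stage, which gave 10 lists of peaks. An Abcam antibody that also binds dimethylated H3K4 (H3K4me2/3) gave 5 lists in experiment 2, and acetylation of lysine 9 (H3K9ac) gave 5 lists in experiment 1.

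A list holds the positions of peaks and no read counts, so the depth behind a call is unknown and a missing peak does not mean that the mark was absent. The H3K4me3 lists held from 4883 to 15699 peaks with median widths of 380 to 773 bp, and covered a TSS of 25.2% to 46.3% of all genes. The H3K4me2/3 lists reached 53.3% to 64.7% of genes. The H3K9ac lists were the most uneven, from 516 peaks and 1.99% of genes in diplonema to 16003 peaks and 41.1% of genes in zygonema. The leptonema and diplonema lists of experiment 2 reached the most genes with H3K4me3, 46.3% and 46% respectively.

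Of the sorted proteins' own genes, Stra8 had H3K4me3 in both leptonema lists and in no other, Sycp3 in all 10 and Sycp1 in 8. Hist1h1t, which encodes H1t, had a peak in 1 leptonema and 1 zygonema list and in no late pachynema or diplonema list, although both stages were sorted for the protein. The 4 round spermatid genes (Prm1, Prm2, Tnp1 and Acrv1) had no peak in any of the 20 lists. Of the 10 markers of spermatogonia, Sertoli cells and Leydig cells, 4 had an H3K4me3 peak in some list, beside 11215 of all 20722 genes. Uchl1 had peaks in both leptonema lists (746 and 862 bp) and in 1 late pachynema list, and Kit (175 bp) and Sox9 (1391 bp) had a peak in leptonema experiment 2 alone. Insl3 had a peak of 288 bp in diplonema experiment 2. With H3K4me2/3, 7 of these 10 markers had a peak at some stage, beside 13913 of all 20722 genes. Amh, Cyp17a1 and Star had none in any list.

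RefSeq promoters (GRCm38.p6, the assembly behind mm10) are shown for Mei4, Rec114 and Ankrd31, to let the place of the leptonema peak be read against the start of each gene. Each runs from 250 bases before the RefSeq start to 50 bases at and after it, on the strand of the gene. Capitals mark the bases under the H3K4me3 peak of leptonema experiment 2. No sequence is shown for Spo11 and for the upstream start of Mei1.
Mei4, chr9:81863420-81863719, plus strand: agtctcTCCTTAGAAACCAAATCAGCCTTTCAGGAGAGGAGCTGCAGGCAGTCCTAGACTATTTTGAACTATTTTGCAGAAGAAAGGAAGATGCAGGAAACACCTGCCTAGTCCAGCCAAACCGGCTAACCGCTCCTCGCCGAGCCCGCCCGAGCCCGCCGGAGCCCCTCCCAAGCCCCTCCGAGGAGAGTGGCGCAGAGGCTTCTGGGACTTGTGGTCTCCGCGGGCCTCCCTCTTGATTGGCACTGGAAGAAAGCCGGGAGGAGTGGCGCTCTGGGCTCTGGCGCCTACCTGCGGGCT
Rec114, chr9:58741510-58741809, minus strand: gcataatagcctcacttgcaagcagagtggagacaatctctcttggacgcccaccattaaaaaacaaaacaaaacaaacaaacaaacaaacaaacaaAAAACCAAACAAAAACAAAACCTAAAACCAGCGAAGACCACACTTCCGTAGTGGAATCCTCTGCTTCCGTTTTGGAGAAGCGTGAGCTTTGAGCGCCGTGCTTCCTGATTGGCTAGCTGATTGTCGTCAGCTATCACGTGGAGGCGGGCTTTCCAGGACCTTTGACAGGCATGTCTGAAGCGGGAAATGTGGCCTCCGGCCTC
Ankrd31, chr13:96748043-96748342, plus strand: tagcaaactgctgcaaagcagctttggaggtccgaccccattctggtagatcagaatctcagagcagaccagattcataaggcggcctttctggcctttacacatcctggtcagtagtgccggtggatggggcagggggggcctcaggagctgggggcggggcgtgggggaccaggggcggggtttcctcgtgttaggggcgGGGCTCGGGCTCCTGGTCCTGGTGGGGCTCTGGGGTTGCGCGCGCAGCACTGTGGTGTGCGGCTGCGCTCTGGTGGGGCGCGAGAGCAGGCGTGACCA

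The peak covered 294 of the 300 bases at Mei4, 203 at Rec114 and 98 at Ankrd31, where it began close to the start and ran into the gene. The GC content was 60.7% at Mei4, 47.7% at Rec114 and 65.3% at Ankrd31, beside a median of 53% over 31396 autosomal RefSeq promoters. The ratio of observed to expected CpG dinucleotides was 0.58, 0.71 and 0.568 in the same order, above the median of 0.389. The short motifs searched on both strands were the GC box (GGGCGG), the E-box (CACGTG), the CCAAT box (CCAAT), the MYB element (TAACNG), the core of the cyclic AMP response element (TGACG) and the TATA box (TATAAA). No motif contains another, and a match says only that the letters are there.

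Ankrd31 held 3 GC boxes, which began 96, 75 and 53 bases before the RefSeq start, and Mei4 held 1. A GC box was found in 36% of all promoters. Rec114 held an E-box 19 bases before its start, a motif of 7.14% of promoters, and a TGACG match 29 bases before it, a motif of 21%. Both Mei4 and Rec114 held a CCAAT box (37.3% of promoters), and Mei4 alone held a MYB element (23.4%). No TATA box, present in 13.6% of promoters, was found in any of the 3.

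Spo11 was the member with H3K4me3 at every stage. Its start lies at chr2:172979842 on the plus strand, with another 7 bases downstream. In experiment 1 the peak was 171 bp wide in leptonema and 245 bp in zygonema, then 211 bp and 215 bp in early and late pachynema, and 283 bp in diplonema. In experiment 2 the widths were 620, 375, 248, 408 and 491 bp in the same order. The peak of experiment 2 was thus the wider at each of the 5 stages, and leptonema held both the narrowest and the widest of the 10. A peak in all 10 lists was found at 18% of all genes.

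The Spo11 peaks were narrow for their lists. Ranked by width among all peaks of the same list, they stood between percentile 4.09 and percentile 43.4, with a median of 20.9. All 10 had their midpoint downstream of the start, and 4 reached across it. The 10 peaks shared 131 bp, from 84 to 214 bp downstream of the start (chr2:172979926-172980056), a stretch at the border of an exon and the intron after it. In leptonema experiment 1, for example, 139 bp of the peak were exonic and 32 bp intronic.

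**Figure D1:**
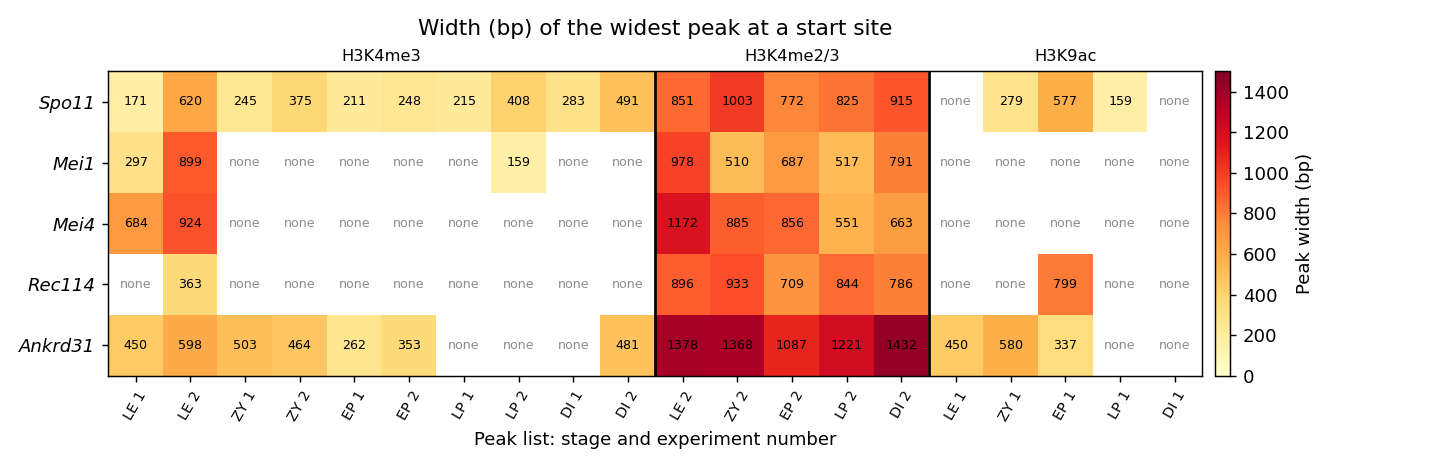
Width in bp of the widest peak at a start site of each of the 5 genes (rows) in each of the 20 lists (columns, by antibody, stage and experiment number; LE and ZY for leptonema and zygonema, EP and LP for early and late pachynema, DI for diplonema). The cells marked none had no peak. Spo11 has an entry in all 10 H3K4me3 lists, Mei4 in the 2 leptonema lists alone, and all 25 H3K4me2/3 cells are filled.

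Mei1, Mei4 and Rec114, the accessory factors, had H3K4me3 almost solely in leptonema. Mei4 starts at chr9:81863670 on the plus strand. Its peak was 684 bp wide in leptonema experiment 1 and 924 bp in experiment 2, at percentiles 59.8 and 67.7 of the widths in those lists, and none of the 8 later lists had a peak. The 2 leptonema peaks began at nearly the same base, 245 and 244 bp upstream of the start, and ended 438 and 679 bp downstream of it. A peak in both leptonema lists and in none of the later ones was found at 1% of all genes (208 of 20722).

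Mei1 has 2 groups of starts, at chr15:82069996 and about 12 kb downstream of it at chr15:82082464 and chr15:82082476, all on the plus strand. At the upstream start the H3K4me3 peak was 297 bp wide in leptonema experiment 1, 899 bp in leptonema experiment 2 and 159 bp in late pachynema experiment 2. The last was among the narrowest of its list, at percentile 3.63. No H3K4me3 list had a peak at the downstream starts.

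Rec114 starts at chr9:58741559 on the minus strand. It had 1 H3K4me3 peak, of 363 bp in leptonema experiment 2 (percentile 19.9, so that the call rests on this list alone), which reached from 153 bp upstream to 209 bp downstream of the start. The other 2 starts of Rec114, at chr9:58660367 and chr9:58743964, had no peak in any of the 20 lists. Mei1, Mei4 and Rec114 thus had a peak in at least 1 leptonema list and in no zygonema list, a pattern of 8.94% of all genes.

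Ankrd31 stood between Spo11 and these genes. Its starts lie at chr13:96748272 and chr13:96748532 on the plus strand. The H3K4me3 peak was 450 and 598 bp wide in leptonema, 503 and 464 bp in zygonema, and 262 and 353 bp in early pachynema (experiments 1 and 2 in turn). There was no peak in either late pachynema list or in diplonema experiment 1, and one of 481 bp in diplonema experiment 2. The 7 peaks shared 262 bp, from 135 to 396 bp downstream of the upstream start (chr13:96748407-96748668), and all of them had their midpoint downstream of it.

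**Figure D2:**
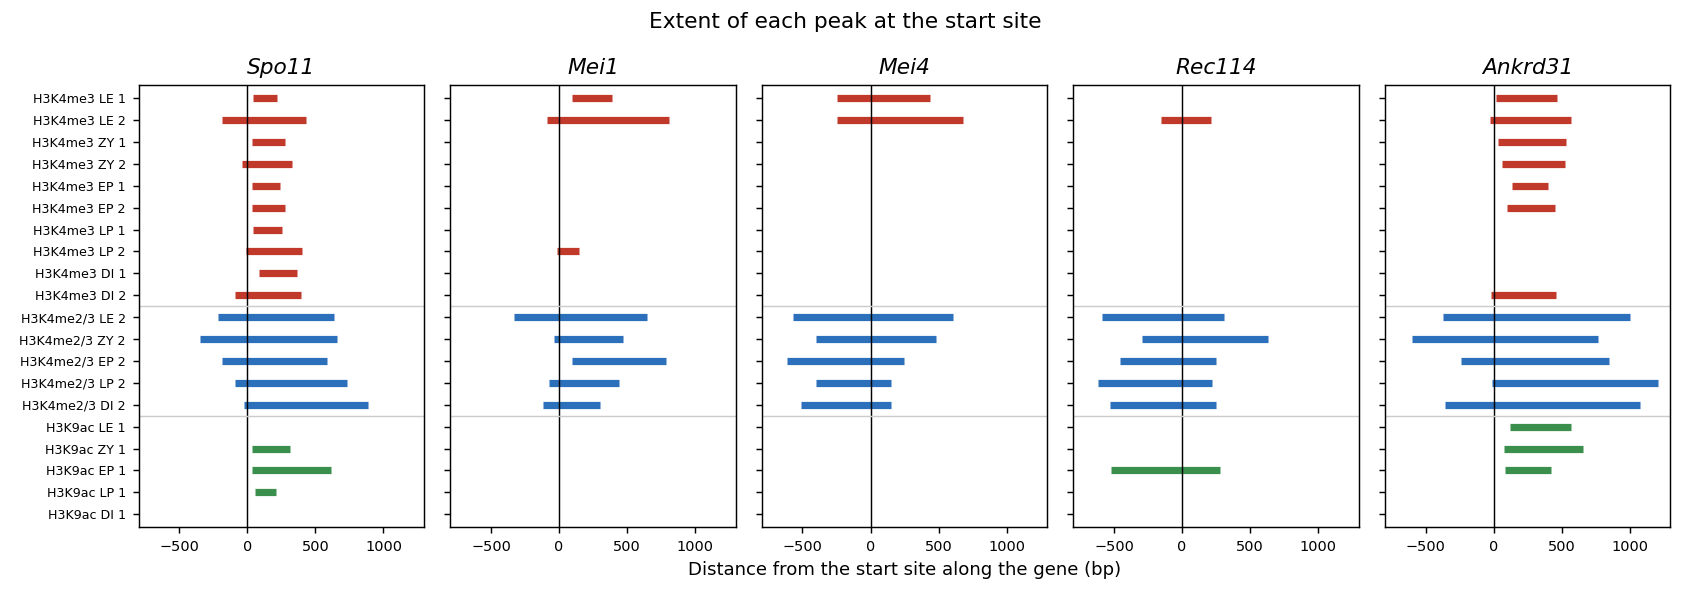
Extent of each peak at the 5 genes, as distance in bp from the most upstream start with a peak (vertical line), with positive values inside the gene. Rows are the 20 lists, with H3K4me3 in red, H3K4me2/3 in blue and H3K9ac in green. The H3K4me3 peaks of Spo11 and Ankrd31 are centred downstream of the line and the H3K4me2/3 peaks of Mei4 and Rec114 reach upstream of it, and the peak of 791 bp at the downstream start of Mei1 is out of range.

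Each stage offered 10 H3K4me3 cells, 5 genes in 2 lists. Of these, 9 were filled in leptonema, 4 each in zygonema and early pachynema, and 3 each in late pachynema and diplonema. With a peak asked for in both lists of a stage, 4 of the 5 were called in leptonema, beside 38.1% of all genes. In zygonema 2 were called, beside 32.4%, and in early pachynema 2, beside 24.9%. In late pachynema and diplonema Spo11 alone was called, beside 25.8% and 28.6% of all genes. The count was thus above the background in leptonema and within 1 gene of it at each later stage.

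**Figure D3:**
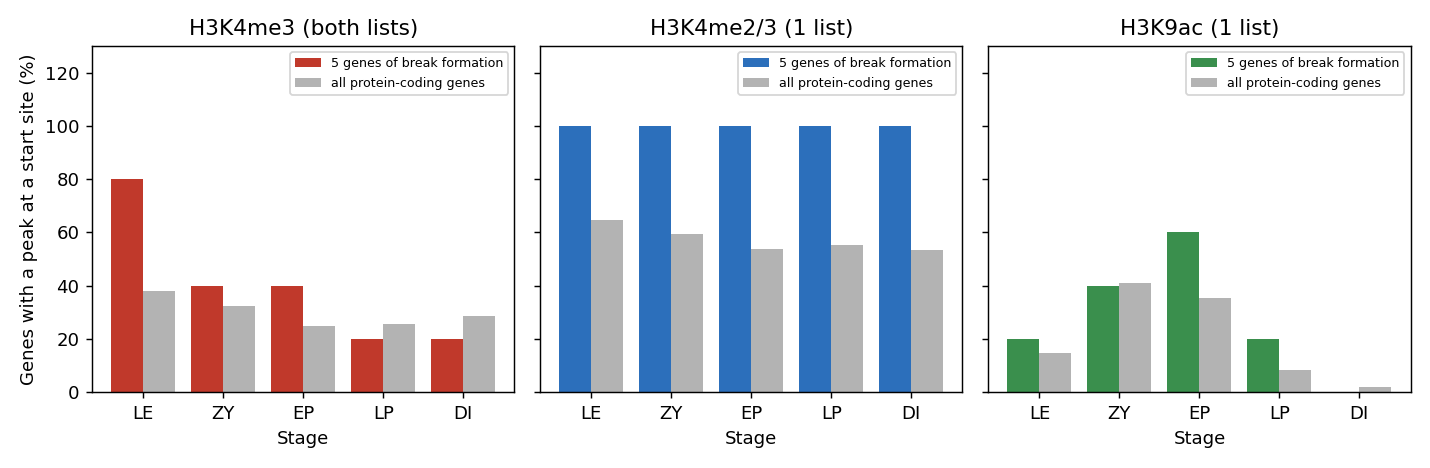
Percent of the 5 genes (coloured) and of all 20722 protein-coding genes (grey) with a peak at a start site, by stage. H3K4me3 asks for a peak in both lists of a stage, while H3K4me2/3 and H3K9ac have 1 list per stage; the coloured H3K4me3 bar is highest in leptonema (4 of 5 genes) and the H3K4me2/3 bars stand at 5 of 5 throughout.

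Whether the genes were called more often early in prophase was tested with a two-sided exact permutation test over the 10 H3K4me3 lists, on each of 11215 genes with at least 1 peak. With the 4 leptonema and zygonema lists against the 6 later ones, no gene of the genome had an adjusted p (Benjamini-Hochberg) at or under 0.05, and the smallest adjusted p was 0.373. At an unadjusted p at or under 0.05, 413 genes (3.68%) were called more often early and 118 less often, and none of the 5 genes was among them. The exact permutation p was 0.133 for Mei4, 0.2 for Ankrd31, 0.4 for Rec114, 0.5 for Mei1 and 1 for Spo11, and the adjusted p was 1 for each.

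Leptonema against the other stages is also a comparison of the 2 sorts, so stage and sort cannot be told apart in it. With the 2 leptonema lists against the other 8, no p can be under 0.0222, and no gene passed after adjustment. Mei4 reached that smallest value (exact permutation p = 0.0222, adjusted p = 1), with a peak in 2 of 2 leptonema lists and 0 of 8 others. It was 1 of 208 genes (1.85% of those tested) more often called in leptonema at this unadjusted level, and 13 genes were called less often. Mei1, with 2 of 2 against 1 of 8 lists, had an exact permutation p of 0.0667. Late pachynema experiment 2 was the 1 later list with a peak at Mei1. Leaving it out could only give the smallest exact permutation p then possible, 0.0278. The exact permutation p was 0.0833 when any other later list was left out. Over all genes the smallest adjusted p of this exact permutation test was 1. A gene could pass only if a large part of the 11215 genes tested shared the smallest possible p. The adjusted values therefore do not show that a difference was absent.

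Peak width likewise gave no difference that passed the test. The percentile rank of the peak within its list, taken as 0 where there was none, averaged 37 ± 4.12 (SD, n = 4) for Ankrd31 in leptonema and zygonema and 15.6 ± 19.1 (n = 6) in the later lists (exact permutation p = 0.0762, adjusted p = 0.31). For Spo11 the means were 21.6 ± 18.1 and 21.5 ± 10.2 (exact permutation p = 0.99). For Mei4 the early mean was 31.9 ± 36.9 and for Mei1 21 ± 31.3, against 0 and 0.606 ± 1.48 later (exact permutation p = 0.133 for each, adjusted p = 0.382). Across all genes 1520 (13.6%) had a higher rank early and 754 a lower one at an unadjusted exact permutation p at or under 0.05. None passed after adjustment (exact permutation test, smallest adjusted p = 0.0849), and none of the 5 genes was among the 1520. The difference of 21.4 points at Ankrd31 turned to −7.48 points with equal list sizes (exact permutation p = 1), where 1 peak was left, that of early pachynema experiment 2. With the wider peaks of each list Ankrd31 had no H3K4me3 peak left, so its difference could only be 0 and tested nothing. Without early pachynema experiment 2 its exact permutation p was 0.0159, and with widths in bp in place of ranks it was 0.0333. Of the 19 alternatives to this test, only these gave any of the 5 genes a p at or under 0.05. Leaving out any other H3K4me3 list gave Ankrd31 an exact permutation p of 0.0635 to 0.135.

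The calls also moved with the length of the lists. When each H3K4me3 list was cut to its 4883 widest peaks, the number in the shortest list, 6 of the 23 member calls remained. These were both leptonema peaks of Mei4 (684 and 924 bp), the leptonema experiment 2 peak of Mei1, the early pachynema experiment 2 peaks of Spo11 and Ankrd31, and the late pachynema experiment 1 peak of Spo11. The share of filled member cells was then 12%, beside a mean of 21.8% over all genes, where the full lists gave 46% and 35.6%. The markers of other cells with a leptonema peak (Uchl1, Kit and Sox9) stand beside the leptonema calls of Mei1, Mei4 and Rec114. The part of such cells, of the separate leptonema sort, of gate purity and of list length in these calls was not tested.

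With the H3K4me2/3 antibody all 5 genes had a peak at all 5 stages, 25 of 25 cells. The share of all genes with a peak was 64.7% in leptonema and 59.4% in zygonema. It was 53.7% and 55.4% in early and late pachynema and 53.3% in diplonema, and 47.8% of genes had a peak at every stage. In the order of those stages the widths at Spo11 were 851, 1003, 772, 825 and 915 bp, and at Ankrd31 1378, 1368, 1087, 1221 and 1432 bp. Ankrd31 had the widest peak of the 5 genes at each stage.

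At Mei4 the H3K4me2/3 peak was 1172 bp wide in leptonema and 885 bp in zygonema, then 856 bp and 551 bp in early and late pachynema, and 663 bp in diplonema. Its midpoint lay 18.5 bp downstream of the start in leptonema and 41 bp downstream in zygonema, and then upstream of it, at −184.5, −124 and −179 bp. The peak was therefore still present at the 4 stages without a called H3K4me3 peak, but reached no more than 243 bp into the gene from early pachynema on. At Rec114 the widths were 896, 933, 709, 844 and 786 bp, with the midpoint upstream of the start at each stage but zygonema. With 1 list per stage these differences have no replicate.

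At the upstream start of Mei1 the H3K4me2/3 peak was 978 bp wide in leptonema and 510, 687, 517 and 426 bp at the later stages in turn. In diplonema a further peak of 791 bp (chr15:82082600-82083390) lay just inside the downstream start, and another of 449 bp (chr15:82071825-82072273) lay in the gene body between the starts. Neither was present at any other stage or with any other antibody.

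Mei1, Mei4 and Rec114 had H3K4me2/3 in zygonema while both H3K4me3 lists of zygonema had none. Among the 9911 genes with H3K4me2/3 at every stage, 20.9% likewise had no H3K4me3 in zygonema. In experiment 2, where both antibodies were used, H3K4me3 was called in 5 of 5 genes in leptonema and in 2 of 5 at each later stage, so that 12 of the 25 H3K4me2/3 calls had no H3K4me3 beside them. Of all genes with H3K4me2/3, 28.6% had no H3K4me3 in leptonema and 40.7% in zygonema. The share was 53.1% in early and 28.7% in late pachynema, and 14.5% in diplonema.

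Where both antibodies gave a peak, the H3K4me2/3 peak was the wider in all 13 pairs, by a ratio of 1.09 (Mei1 in leptonema) to 3.25 (Mei1 in late pachynema). It contained the whole H3K4me3 peak in 10 of them. The median ratio over all genes was 1.83 in leptonema and 3.55 in early pachynema. The H3K4me2/3 lists were also the longer ones, and when each was cut to its widest peaks, as many as the H3K4me3 list of the same stage held, 5 of the 25 calls remained: Mei4 and Ankrd31 in leptonema, Ankrd31 in zygonema, and Spo11 and Ankrd31 in diplonema. That is 20% of the cells, beside a mean of 40.1% over all genes in the same shortened lists. With the wider peaks of each full H3K4me2/3 list 11 calls remained, 44% of the cells beside 43.9% over all genes. With each list cut to its 17561 widest peaks, the number in the shortest, 24 calls remained, 96% beside 53.7%. The excess of the 5 genes over other genes thus held for the full and the equal-sized lists and not for the shorter ones. The equal-sized lists were close to the full ones in early pachynema, late pachynema and diplonema, which held 17561, 19711 and 18191 peaks. The excess in the full lists was not particular to the 5 genes. H3K4me2/3 at every stage was also found at 7 of the 8 partners and regulators and all 13 genes of end processing described below. In early pachynema these pairs of libraries came from different sorted material, unlike at the other stages. List length and the specificity of the antibody cannot be told apart here.

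**Figure D4:**
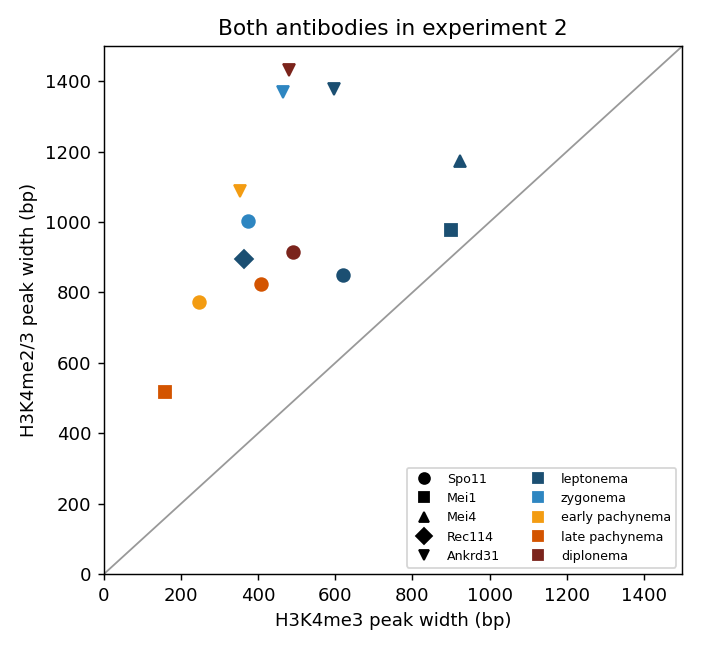
Width in bp of the H3K4me2/3 peak against that of the H3K4me3 peak at the same gene and stage in experiment 2, for the 13 pairs with both. Symbols give the gene, colours the stage, and the grey line marks equal widths. All 13 points lie above the line.

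H3K9ac was called in 7 of 25 cells. Ankrd31 had peaks of 450 bp in leptonema, 580 bp in zygonema and 337 bp in early pachynema, the 3 stages at which both of its H3K4me3 lists had one. Spo11 had peaks of 279 bp in zygonema, 577 bp in early pachynema and 159 bp in late pachynema. Rec114 had 1 peak, of 799 bp in early pachynema, a stage at which it had no H3K4me3. Mei1 and Mei4 had none.

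Members were called with H3K9ac most often in the longest lists, those of zygonema and early pachynema. In leptonema 1 of the 5 genes was called beside 14.8% of all genes, and in zygonema 2 beside 41.1%. Early pachynema had 3 beside 35.3% and late pachynema 1 beside 8.27%, while diplonema had 0 beside 1.99%. The H3K9ac calls thus gave no count far from the background.

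The 8 partners and regulators ranged from 0 to 10 lists with H3K4me3. Hormad1, which encodes an axis protein that recruits the break machinery, Prdm9, Atm, the kinase that limits break number, and Cxxc1, a subunit of an H3K4 methyltransferase complex, had a peak in all 10 lists. Hormad2 had a peak in 8 and Zcwpw1, a reader of PRDM9-modified histones, in 6. Of the 8 genes, 7 had H3K4me3 in both leptonema lists (38.1% of all genes) and 6 in both zygonema lists (32.4%). Early pachynema had 5 (24.9%), late pachynema 4 (25.8%) and diplonema 5 (28.6%). A count above the background in leptonema was thus not particular to the 5 genes of the break machinery. Of the 8 partners and regulators, 1 (Gm960) was called more often early at an unadjusted p at or under 0.05, none less often, and none after adjustment. The median difference in calls, early minus late, was 0 points for these 8 genes, 33.3 points for the 5 genes of the break machinery and 0 points for all genes tested. With shorter lists the median of the 5 genes was 0 points, both with the wider peaks of each list (8.33 points over all genes tested) and with equal list sizes (−16.7 points). These medians are of unlike sets, since a gene with no peak left counts as 0 among the 5 but is left out of all genes tested. With the wider peaks 2 of the 5 kept an H3K4me3 peak, Mei1 (25 points) and Mei4 (50 points), and with equal list sizes 4 did.

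Gm960, which encodes TOP6BL, the partner of SPO11, was unlike Spo11 and more like Mei4. It had peaks of 1324 and 1287 bp in leptonema, 439 bp in zygonema experiment 1, and none in the other 7 lists (exact permutation p = 0.0333, adjusted p = 0.93). Ccdc36, which encodes IHO1, a partner of REC114 and MEI4, had no peak in any of the 20 lists at its GENCODE start. At the RefSeq start, 3342 bp away at chr9:108431826, 5 of 10 H3K4me3 lists (both of leptonema and 1 each of early pachynema, late pachynema and diplonema), 5 of 5 H3K4me2/3 lists and 2 of 5 H3K9ac lists had a peak. That position was looked up after the absence at the GENCODE start was seen.

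Of 13 genes of break end processing and strand invasion, 12 had H3K4me3 in both leptonema lists (38.1% of all genes) and 11 in both zygonema lists (32.4%). Early pachynema had 7 (24.9%), late pachynema 6 (25.8%) and diplonema 9 (28.6%). Their median difference in calls, early minus late, was 16.7 points. All 13 had H3K4me2/3 at every stage. Dmc1, the meiotic recombinase, had H3K4me3 in all 4 leptonema and zygonema lists (934, 1093, 622 and 181 bp) and in none of the later ones, which gave the smallest p the design allows (exact permutation p = 0.00476, adjusted p = 0.373). It was the 1 gene of the 13 at an unadjusted p at or under 0.05. Mre11a and Rbbp8, of the nucleases that trim the break ends, and Brca2 and Hsf2bp, which act in strand invasion, had one in all 10.

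**Figure D5:**
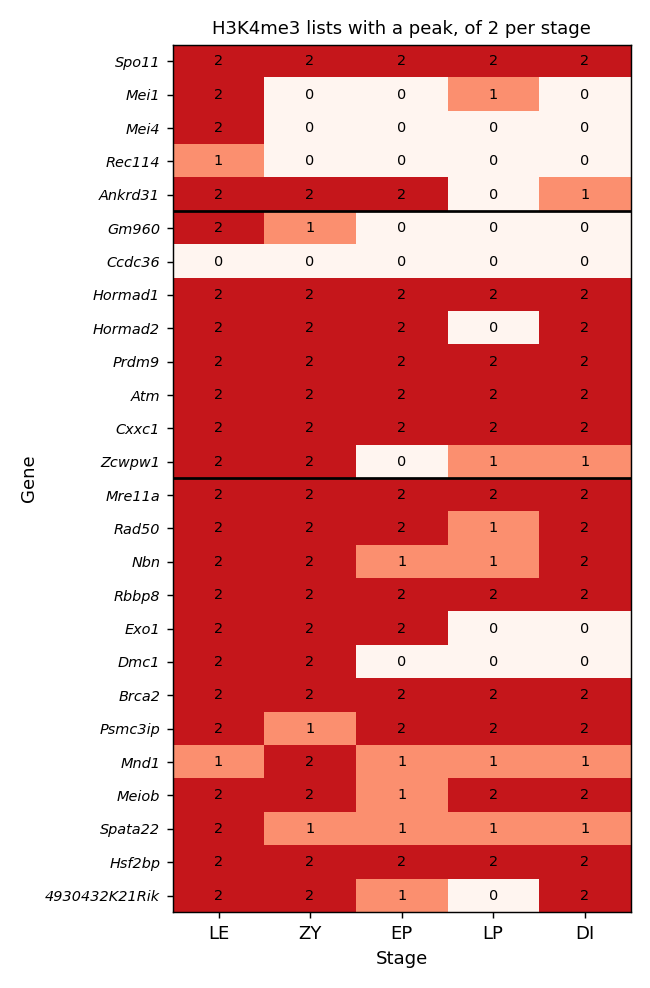
Number of H3K4me3 lists, of 2 per stage, with a peak at a start site of each gene. Lines separate the 5 genes of the break machinery, the 8 partners and regulators, and the 13 genes of end processing and strand invasion. Mei1, Mei4, Rec114 and Ccdc36 have 0 in zygonema and all others have at least 1.

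The genes most like each member were sought as those with the smallest mean absolute difference in width percentile over the 20 lists. They were Zfp994 (1.9 points), Zfp82 (2.93) and Itpripl1 (4.03) for Mei1, and Samd14 (3.99), Lima1 (4.18) and Bmyc (4.22) for Mei4. Prmt2 (3.41), Hadh (3.45) and Snx15 (3.75) were closest to Rec114. Spo11 and Ankrd31 had no neighbour as close, with B4galt7 (7.89), Sar1b (7.94) and Zfp11 (8.13) for Spo11 and Cpped1 (8.69), Zfp784 (8.7) and Yae1d1 (8.72) for Ankrd31. Among the 5 genes themselves Mei1 and Mei4 were the closest pair, 5.03 points apart and with the same call in 19 of 20 lists, and Mei1 and Ankrd31 were the farthest, at 23.1 points. A list with no peak at either gene adds 0 to the distance, so genes with few peaks can come out close for that reason alone. Mei1, Mei4 and Rec114 had a peak in 8, 7 and 7 of the 20 lists, Spo11 in 18 and Ankrd31 in 15. Several of the 20 lists come from the same sorted nuclei with different antibodies, so they are not 20 independent points.

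No start of another gene lay inside a peak of the 5 genes. The neighbouring promoters gave a comparison within the same libraries. Ccdc134, downstream of Mei1, had H3K4me3 peaks in both zygonema lists (735 and 313 bp), both early pachynema lists (301 and 154 bp) and both diplonema lists (580 and 665 bp), in all of which Mei1 had none. It had no H3K4me3 peak in late pachynema. Rae1, downstream of Spo11, had a peak in all 10 H3K4me3 lists, of 324 to 1037 bp, and was wider than Spo11 in each.

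Away from annotated starts, 3 of the 5 genes had an H3K4me2/3 peak within the gene or 10 kb of it in leptonema and in zygonema, beside 34.1% and 33.9% of all genes. Early pachynema had 1 such gene (14.8% of all genes), diplonema 1 (17.3%) and late pachynema 0 (19.9%). Upstream of Mei1 such a peak was 1964 bp wide in leptonema (chr15:82064048-82066011) and 2156 bp in zygonema (chr15:82063805-82065960), the latter at percentile 94.9 of its list, and 181 bp in early pachynema. It lay within the annotated gene 4930407I10Rik and was not called with the H3K4me3 antibody.

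A site downstream of Rec114, within Nptn, was called with all 3 antibodies. H3K4me3 was 218 bp wide in leptonema experiment 1, 968 bp in zygonema experiment 1 (chr9:58644353-58645320) and 150 bp in zygonema experiment 2, and H3K9ac was 1340 bp wide in zygonema. H3K4me2/3 was 1042 bp wide in leptonema and 1139 bp in zygonema. Downstream of Ankrd31, outside any annotated gene, a site was called with H3K4me3 in zygonema experiment 1 (601 bp, chr13:96911275-96911875), with H3K4me2/3 in leptonema (155 bp) and zygonema (545 bp), and with H3K9ac in zygonema (712 bp). Neither site had a peak in early pachynema, late pachynema or diplonema, and the 342338 bp of Mei4 and the 10 kb on either side held no peak away from its start.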

How the data were processed

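The authors sorted nuclei, made ChIP-Seq libraries and aligned reads to mm10 with BWA (0.7.12), and called peaks with MACS2 (2.1.2) in broad mode at a q-value threshold of 0.1, per the study's methods, with stage-matched input as the H3K4me3 control. The control for H3K9ac is not given in the sources used here, and the antibody label of the H3K9ac samples names H3K4me3, while their titles and the methods give H3K9ac. The deposited lists hold start and end positions, on chromosomes 1 to 19, called per library and without a score or depth. A longer list can come from a deeper or purer library.

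A gene was called when a peak overlapped 500 bp either side of a TSS by at least 1 bp. Where several did, the widest gave the width. Width ranks are percentiles within a list. GENCODE M21 gave the TSSs. Differences were tested by two-sided exact permutation of the libraries within each antibody, with Benjamini-Hochberg adjustment over all genes with a peak (Python 3.11.15, numpy 2.4.6), after the scripts were tested on simulated peaks. H3K4me2/3 and H3K9ac had 1 list per stage and were described without a test. Nothing states that the experiments were separate animals, so p-values measure the spread between these libraries, which may be technical. Alternatives varied the window, the overlap, the transcripts, the peaks kept, the libraries and the measure of width.

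The 5 genes and the gene lists were chosen with earlier results of these data known. Named genes are the 5 genes, 8 partners, 13 genes of end processing (1 further gene of that list is not reported here), the markers, and the 3 genes most alike to each member with no TSS within 5 kb (5000 bp). The 31 of 51 samples without a list were not analysed here.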

Additional observations from a re-analysis of the deposited data

How the results depend on the processing

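No gene of the genome passed after adjustment in any of the 3 tests of early against late stages, in the full lists and under each alternative that was run. Permutations of so few lists give no very small p, so a gene could pass only where very many genes shared the smallest one. The absence of passing genes therefore does not show that no gene differed. A window of 1000 or 250 bp, an overlap of at least 100 bp and all transcripts of each gene left the member calls at 23, 25 and 7 for H3K4me3, H3K4me2/3 and H3K9ac. With the wider peaks of each list they were 3, 11 and 2, or 6%, 44% and 8% of the cells, beside 20%, 43.9% and 12.1% over all genes. With equal list sizes they were 6 for H3K4me3, 24 for H3K4me2/3 and 0 for H3K9ac, or 12%, 96% and 0% beside 21.8%, 53.7% and 2.51%. With the H3K4me2/3 lists cut to the length of the H3K4me3 lists, an alternative chosen after seeing the data, 5 of 25 remained (20%, beside 40.1% over all genes). Equal list sizes turned the difference between early and late at Ankrd31 to −16.7 points in the calls, to −12.5 points for leptonema against the rest and to −7.48 points in the width rank, and those of Spo11 to −33.3, −25 and −6.99 points. The peaks left were of 353 bp at Ankrd31 and of 248 and 215 bp at Spo11. They lay in early pachynema experiment 2 and late pachynema experiment 1, the shortest lists (4883 and 5189 peaks), from which the cut took few peaks or none. The negative signs cannot be told apart from this uneven cut and show no reversal by stage. The width rank difference of Spo11 was 0.139 points and ran from −7.11 (without leptonema experiment 2) to 5.99 (without leptonema experiment 1) when 1 library was left out. The 413 genes more often called early at an unadjusted p at or under 0.05 were 262 without leptonema experiment 2, 780 without diplonema experiment 2 and 142 with equal list sizes. The 208 of leptonema against the rest were 313 without zygonema experiment 1. The 1520 of the width ranks were 916 without leptonema experiment 2, 757 with the wider peaks of each list and 510 with equal list sizes. Without either leptonema list no p at or under 0.05 was possible for leptonema against the rest.

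The experiment differences were mostly little alike between stages. Their correlation was above 0 in 8 of 10 pairs of stages and above 0.1 in 1, late pachynema with diplonema (−0.125 to 0.364). Whether libraries with the same experiment number share material across stages cannot be told from these values. With experiment as a replicate block, 0 genes passed after adjustment in each test, the exact permutation p of Mei4 for leptonema against the rest was 0.04, and 264 genes in place of 413 were called more often early at an unadjusted p at or under 0.05. No depth can be read from the lists, so a missing peak limits nothing about the level of the mark.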
